A study of Mus musculus with 9 samples.

Results

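The semaphorins described here are 10 genes chosen by name: *Sema3a*, *Sema3c* and *Sema3e* of the secreted class 3, the membrane proteins *Sema4d*, *Sema4g*, *Sema5a*, *Sema5b*, *Sema6a* and *Sema6d*, and the lipid-anchored *Sema7a*. They are 10 of the 20 semaphorin genes, and of the 17487 genes, listed over all 9 libraries. Each of the 10 is listed in every library. The study profiled single cells of the mouse neocortex at E18.5 with the Chromium 3′ v2 chemistry, which tags each captured transcript with a unique molecular identifier (UMI). WT and KO embryos were littermates from breedings of mice with 1 intact *Tcf4* copy, on the strain background labelled Tcf4ex4WT/lacZ. In the KO, as the study describes the line, both *Tcf4* alleles hold a *lacZ*/neomycin cassette upstream of the fourth exon, and shorter isoforms that start after this exon are not removed. There are 5 libraries labelled WT (WT1 to WT5) and 4 labelled KO (KO1, KO2, KO4 and KO5), and genotypes were compared here as WT2, WT3 and WT4 against KO4 and KO5 (3 and 2 libraries). These are the libraries with more than 500 cells other than WT5, since the study kept such libraries and left out a WT library for low *Tcf4*. The labels do not tie a library to a named embryo, so the p-values measure the spread between libraries.

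Semaphorins are guidance proteins with a shared sema domain, read by plexins on the growing axon or migrating cell. The secreted class 3 members mostly need neuropilins as co-receptors, with Nrp1 as the main partner of Sema3a and Plxnd1 as a direct receptor of Sema3e, whereas Sema6a and Sema6d act on A-type plexins and Sema7a signals through Plxnc1 and integrins. In the developing cortex they steer radial migration, axon growth across the midline and vessel branching.

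Values are means over the cells of a class in 1 library, in UMIs per 10000 UMIs of the cell. Kept cells numbered 1184 to 6173 in the 5 libraries compared, with a median of 2217 to 4359 UMIs, and 118 to 3630 in the other libraries. Cells were gated with 8 markers a class, none of them a semaphorin, plexin or neuropilin, and between 28.1 and 36.5% of the cells in the 5 libraries fell in no class. Each of the 9 classes compared had its own marker list highest, at 14.5 summed UMIs per 10000 in newborn neurons against 5.87 in the next class, intermediate progenitors. The gates were set by these same markers, so this order was close to fixed in advance and is no test of the gates. *Tcf4* was at 12.2, 12.6 and 12.2 UMIs per 10000 in all kept cells of WT2, WT3 and WT4, against 9.29 and 7.59 in KO4 and KO5. It was at 7.20 in the library labelled WT5, 4.65 in that labelled WT1 and 16.7 in that labelled KO1, against their labels. These libraries, and the small KO2, entered no main comparison, and their values are given beside many of the results. WT4, WT5, KO4 and KO5 were deposited as counts and the other libraries as natural logs, so that among the files of counts 1 WT library, WT4, stands against KO4 and KO5. No pair of libraries shared more than 2.5% of the cell barcodes of the smaller one.

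Between genotypes, *Sema3c* and *Sema5a* fell in newborn neurons and *Sema6a* fell in radial glia or astrocytes. None of the 10 rose past the threshold in any of 7 classes. *Sema3c*, a secreted guidance cue known to act on callosal axons, was at 1.46, 2.36 and 2.65 UMIs per 10000 in newborn neurons of WT2, WT3 and WT4, against 0.921 and 0.322 in KO4 and KO5. These values rest on 39, 143 and 568 *Sema3c* UMIs in 91, 175 and 423 cells of WT2, WT3 and WT4, and on 33 and 4 UMIs in 124 and 57 cells of KO4 and KO5. All 3 WT libraries were above both KO libraries, including WT4 among the files of counts, and KO5 was the lowest. The log2 difference was -0.97 ± 0.18 (SE, n = 3 WT and 2 KO libraries) on the scale of log2(value + 1), which understates changes of low genes, with an adjusted p of 0.000425 (limma, Benjamini-Hochberg over 8570 genes). Of the libraries that go against their labels, WT5 held *Sema3c* at 0.383 (6 UMIs in 60 cells), within the KO range, and KO1 at 2.55 (23 UMIs in 23 cells), within the WT range. WT1 had 3 *Sema3c* UMIs in 6 newborn neurons, too few to place it. With WT5 added to the WT libraries, the *Sema3c* difference was -0.67 with an adjusted p of 0.644, and without KO5 it was -0.70 with an adjusted p of 0.136 (both limma).

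**Figure D1:**
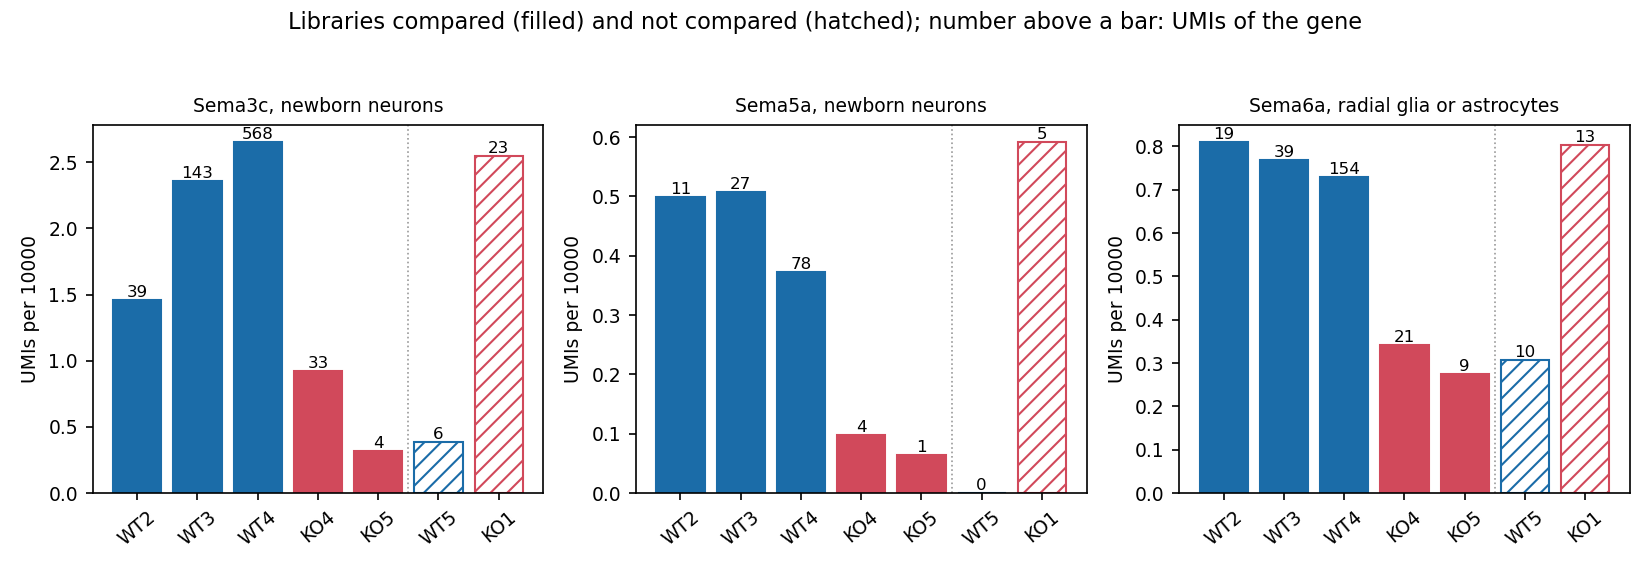
Mean UMIs per 10000 of *Sema3c* and *Sema5a* in newborn neurons and of *Sema6a* in radial glia or astrocytes, 1 bar per library, from 0, with the number of UMIs of the gene above each bar. Filled bars are the libraries compared (blue WT, red KO) and hatched bars the libraries WT5 and KO1, where WT5 lies with KO4 and KO5 in each panel and KO1 with WT2, WT3 and WT4.

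By cells, *Sema3c* had at least 1 UMI in 31.9, 45.7 and 57.2% of newborn neurons in WT2, WT3 and WT4, and in 19.4 and 5.26% in KO4 and KO5. With each cell thinned to 1800 UMIs these shares were 18.7, 34.3 and 30.7% in WT and 13.7 and 3.51% in KO, so the order of the genotypes held at equal depth. As a background, endothelial cells had a *Sema3c* UMI in 9.09% of cells in WT2 and 8.11% in WT4, at a median of 4590.5 and 5775 UMIs, and in 11.3% in KO4, at 2337 UMIs. Newborn neurons had a median of 2381 and 4457 UMIs in WT2 and WT4 and 2282 in KO4. The exact 95% interval of the share in newborn neurons overlapped that of endothelial cells in KO4 (12.8 to 27.4% and 4.27 to 23.0%), in KO5 (1.10 to 14.6% and 0 to 20.6%) and also in WT2 (22.5 to 42.5% and 1.12 to 29.2%). The intervals did not overlap in WT3 (38.2 to 53.4% and 0 to 28.5%) or WT4 (52.3 to 62.0% and 1.70 to 21.9%). Such intervals cover counting error only.

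*Sema5a*, a transmembrane semaphorin with thrombospondin repeats that can attract or repel axons, was at 0.499, 0.508 and 0.373 UMIs per 10000 in newborn neurons of WT2, WT3 and WT4. It was at 0.0985 in KO4 and 0.0649 in KO5. The KO values rest on 4 and 1 UMIs, the WT values on 11, 27 and 78, and the genotypes did not overlap. The log2 difference was -0.43 ± 0.11 with an adjusted p of 0.0117 (limma, Benjamini-Hochberg). The gene passed the filter, a mean of at least 0.1 in 2 libraries, through the WT libraries alone, and with no filter the adjusted p was 0.331. No UMI was found in 60 cells of WT5, where 3 UMIs would be 0.209 per 10000, and KO1 was at 0.591 (5 UMIs). The call is the less stable of the pair: it held in 7 of 18 alternatives, and with a second random thinning before gating the difference was -0.13 with an adjusted p of 0.570 (limma).

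Of the 10 semaphorins, 7 passed the filter on low values in newborn neurons, of which *Sema5a*, *Sema4g* and *Sema7a* passed through the WT libraries alone. The 2 above were called lower and 0 higher, against 2.70% of all genes called lower and 1.82% higher. Groups did not overlap for 5 of the 7, all lower in KO, where 37.5% of all genes did not overlap and 25.9% did so with lower KO values. The median log2 difference of the 7 was -0.19, against -0.05 over all genes tested. *Sema6d* was at 0.446, 0.507 and 0.316 in WT2, WT3 and WT4, against 0.196 and 0.209 in KO4 and KO5, with no overlap and an adjusted p of 0.215 (limma). *Sema4g*, a class 4 membrane semaphorin, was at 0.137, 0.154 and 0.236 against 0.0622 and 0, with an adjusted p of 0.135. *Sema7a* was at 0.244, 0.164 and 0.126 against 0.0864 and 0.0850, with an adjusted p of 0.427. *Sema3a*, the collapsing factor of cortical axons, overlapped between genotypes, with 0.233, 0.331 and 0.261 in WT and 0.342 and 0.271 in KO. *Sema6a* overlapped too, with 0.0615 to 0.175 in WT and 0.0505 and 0.215 in KO.

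Other values of the newborn gate moved with the genotypes as well. Newborn neurons were 7.69, 10.8 and 6.85% of kept cells in WT2, WT3 and WT4, against 2.95 and 2.48% in KO4 and KO5. The 8 markers of the gate summed to 14.0 to 16.9 UMIs per 10000 in WT and 12.9 to 13.0 in KO, without overlap. The 8 intermediate progenitor markers summed to 3.04 to 4.07 in WT and 1.01 to 1.75 in KO, with 6 of them lower in both KO libraries and *Neurog1* at 0 in all 5. The upper layer list summed to 9.48 to 10.9 in WT and 12.2 to 12.4 in KO. Erythroid genes, a sign of free RNA from blood, summed to 5.15 to 9.24 in WT, 32.1 in KO4 and 75.2 in KO5. In the last 3 lists WT5 was at 1.47, 13.7 and 49.4, within or beyond the range of the KO libraries, and KO1 was at 3.27, 11.2 and 2.85. The part of these differences in the *Sema3c* and *Sema5a* results was not tested. A lower level in a class and a class that holds fewer cells of the kind that expresses the gene cannot be told apart by means over cells.

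**Figure D2:**
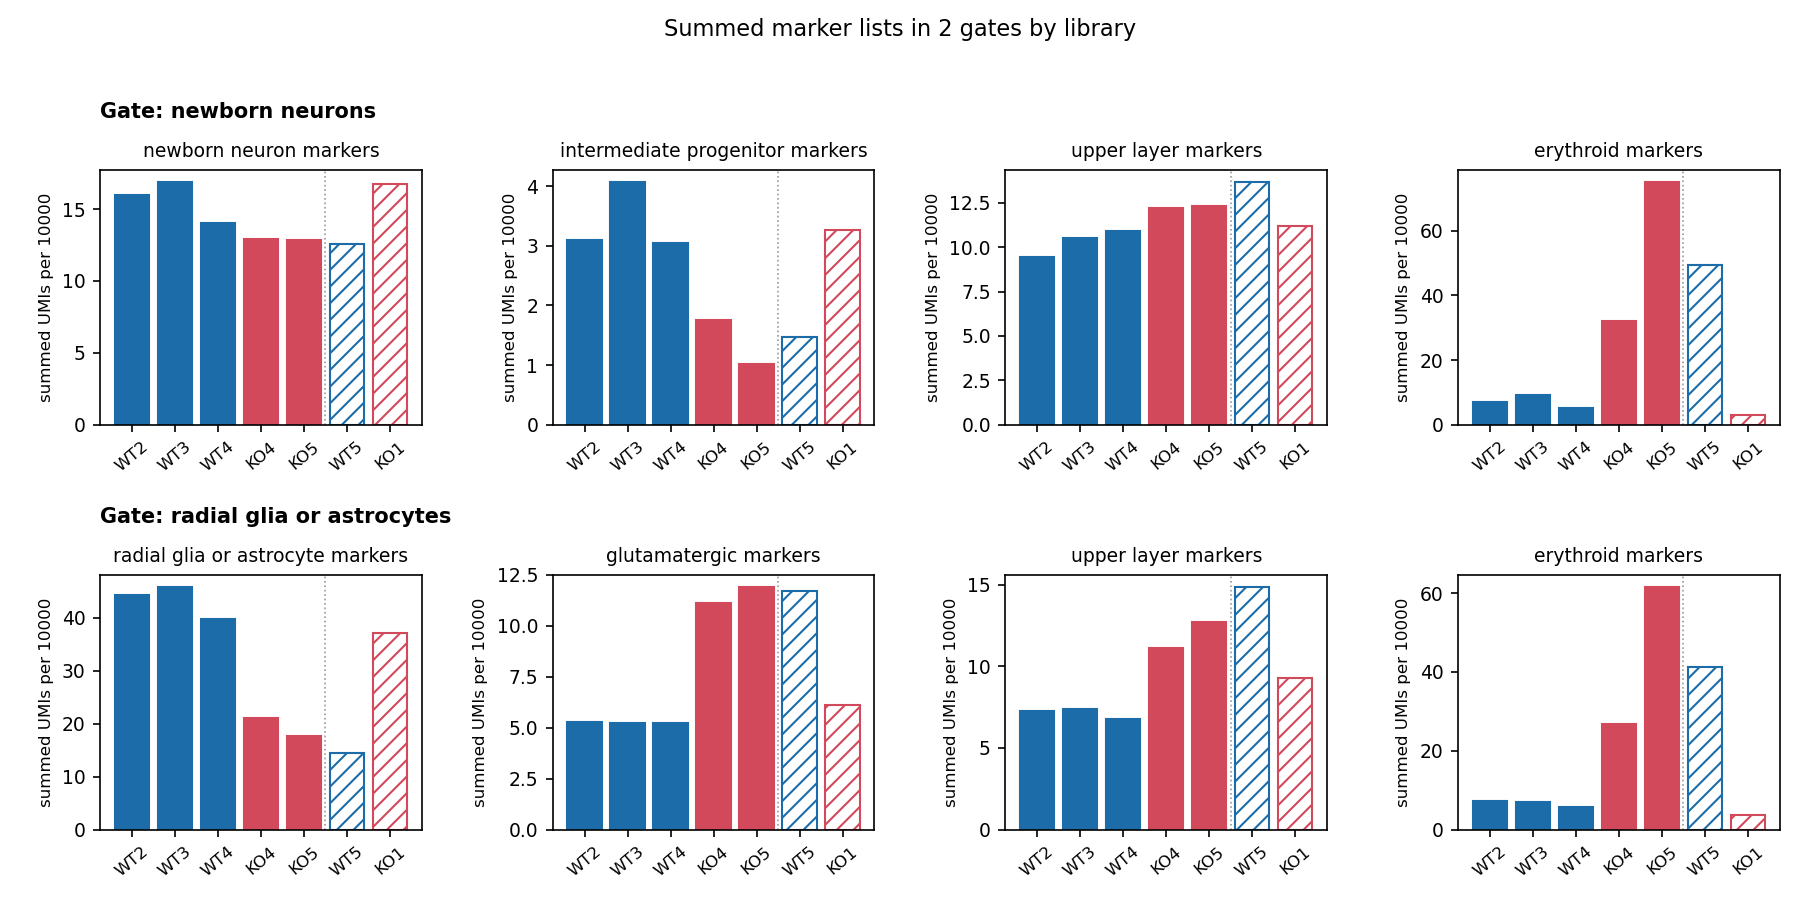
Summed UMIs per 10000 of marker lists (4 panels a gate, each with its own axis from 0) in the newborn neuron gate, top, and the radial glia or astrocyte gate, bottom, 1 bar per library (filled, compared; hatched, WT5 and KO1). Erythroid genes are above 26 in KO4, KO5 and WT5 in both gates and under 10 in WT2, WT3, WT4 and KO1.

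The promoter windows of *Sema3c* and *Sema5a*, the pair called in newborn neurons, are shown because TCF4 binds the E-box, CANNTG, a motif that reads the same on both strands. The windows run from 250 bases before to 50 after the start in RefSeq (GRCm38.p6), chr5:17574566-17574865 for *Sema3c* and chr15:32244563-32244862 for *Sema5a*, both on the plus strand, with each CANNTG in capitals:
Sema3c: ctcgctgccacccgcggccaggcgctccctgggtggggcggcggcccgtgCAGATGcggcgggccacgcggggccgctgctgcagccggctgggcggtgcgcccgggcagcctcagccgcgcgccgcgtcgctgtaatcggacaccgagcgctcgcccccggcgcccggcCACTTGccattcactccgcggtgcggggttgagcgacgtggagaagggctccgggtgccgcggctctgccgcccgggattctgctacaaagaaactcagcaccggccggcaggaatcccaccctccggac
Sema5a: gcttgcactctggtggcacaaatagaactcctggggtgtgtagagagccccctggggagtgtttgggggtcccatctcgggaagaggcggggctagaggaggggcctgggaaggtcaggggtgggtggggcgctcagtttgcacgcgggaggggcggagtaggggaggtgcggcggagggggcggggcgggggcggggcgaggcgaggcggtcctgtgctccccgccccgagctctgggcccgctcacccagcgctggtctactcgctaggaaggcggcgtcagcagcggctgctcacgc
*Sema3c* has 2 matches, CAGATG from base -200 and CACTTG from base -80, counted from the start, and *Sema5a* has 0 in this window. The motif is common: 72.3% of 32851 promoters of the same length hold a match and 39.6% hold 2 or more. A match is a description of letters and not a binding site. The genes lie at chr5:17574281-17730268 (*Sema3c*) and chr15:32244810-32696341 (*Sema5a*) in GENCODE vM21 on GRCm38, and none of the 10 semaphorins overlaps another protein-coding gene. The whole *Sema3c* window, with both matches, thus lies inside the gene as GENCODE draws it, since RefSeq places this start further downstream.

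*Sema6a*, a membrane semaphorin that repels axons and migrating cells through A-type plexins, was at 0.810, 0.768 and 0.728 UMIs per 10000 in radial glia or astrocytes of WT2, WT3 and WT4. It was at 0.342 in KO4 and 0.275 in KO5. These values rest on 19, 39 and 154 UMIs in WT and 21 and 9 in KO, and the 3 WT values lay close together and above both KO values. The log2 difference was -0.44 ± 0.11 (n = 3 WT and 2 KO libraries) with an adjusted p of 0.0151 (limma, Benjamini-Hochberg over 9142 genes). *Sema6a* was at 0.307 in WT5, 0.803 in KO1, 0.181 in WT1 (1 UMI) and 0.0484 in KO2 (1 UMI). The call held in 7 of 19 alternatives, the direction in all 19, and without KO5 the adjusted p was 0.282 (limma). Shares of cells with a *Sema6a* UMI were 16.5, 24.8 and 23.5% in WT and 8.73 and 7.32% in KO, or 12.4, 14.5 and 11.4% and 5.68 and 5.69% after thinning. In microglia the share was 5.17% in WT4 and 2.13% in KO4, at a median of 3380.5 and 2138 UMIs.

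Another 2 membrane semaphorins were lower in both KO libraries in radial glia or astrocytes without passing the threshold. *Sema5b*, a repellent known from the retina and cortex, was at 0.431, 0.230 and 0.245 in WT and 0.151 and 0.0216 in KO, with a log2 difference of -0.26 and an adjusted p of 0.0633 (limma). With KO5 under 0.1, the KO libraries alone would not have passed *Sema5b* through the filter, so its WT values carried it into the test. *Sema6d* was at 0.434, 0.394 and 0.542 in WT and 0.231 and 0.136 in KO, with a log2 difference of -0.30 and an adjusted p of 0.0563. Thus 1 of 7 tested members was called lower, where 4.92% of all genes were. Groups did not overlap for 3 of the 7, where 41.3% of all genes did not, and the median of the 7 was -0.06 against -0.05 over all genes. *Sema3c* had the opposite sign in this class, at 0.199, 0.499 and 0.224 in WT and 0.457 and 0.627 in KO, with overlap and an adjusted p of 0.175 (limma).

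The radial glia or astrocyte gate differed between the genotypes in its own markers. Its 8 markers summed to 44.3, 45.8 and 39.8 UMIs per 10000 in WT2, WT3 and WT4, against 21.1 and 17.7 in KO4 and KO5, with 5 of 8 lower in both KO libraries. The glutamatergic list summed to 5.23 to 5.26 in WT and 11.1 and 11.9 in KO, the erythroid list to 5.75 to 7.18 and 26.8 and 61.6, and the oligodendrocyte list to 1.81 to 3.47 and 0.392 to 1.08. WT5 had 14.4, 11.7, 41.1 and 0.523 for these lists in the same order. KO1 had 37.2, 6.08, 3.75 and 0.816, so it stood near WT2, WT3 and WT4 in the first 3. The own markers were 2.24 times as high in WT as in KO on average, and the part of these differences in the *Sema6a* result was not tested.

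In upper layer neurons no semaphorin was called, where 3.36% of all genes were. *Sema3c* was at 0.545, 1.18 and 0.937 in WT2, WT3 and WT4, against 0.513 and 0.388 in KO4 and KO5. The lowest WT library lay just above the highest KO library, and the log2 difference of -0.37 ± 0.13 had an adjusted p of 0.140 (limma). *Sema6a* went the other way, at 0.0762, 0.0434 and 0.0955 in WT and 0.162 and 0.178 in KO, with a log2 difference of 0.13 ± 0.03 and an adjusted p of 0.0657, and it passed the filter through the KO libraries alone. WT5 held *Sema6a* at 0.217 there. The sign of the *Sema6a* difference turned in 2 of 18 alternatives, at -0.13 with the replicate block and -0.08 with all libraries as labelled. In all, 4 of 6 tested members did not overlap, where 44.9% of all genes did not.

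The fall of *Sema3c* in newborn neurons was larger than that in upper layer neurons of the same libraries. The difference of the log2 changes was -0.60 ± 0.14 with an adjusted p of 0.0227 (limma interaction, Benjamini-Hochberg over 9011 genes). For *Sema5a* it was -0.39 ± 0.09 with an adjusted p of 0.0179, but this gene was under the filter in upper layer neurons and entered the test through its newborn values, where it is high in WT. These were 2 of 8 members tested, and 0.977% of all genes were called. With a gate of 3 markers in place of 2, neither was called.

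No semaphorin was called in deep layer neurons, intermediate progenitors, cycling cells or endothelial cells, where 0.273, 2.42, 13.3 and 3.02% of all genes were called. In intermediate progenitors, *Sema4g* was at 0.132, 0.0603 and 0.107 in WT and 0.152 and 0.709 in KO, and *Sema6a* at 0.0554, 0.0375 and 0.180 in WT and 0.266 and 0.372 in KO, with adjusted p of 0.199 and 0.270 (limma). For *Sema6a* only WT4 among the WT libraries reached 0.1, so the WT libraries alone would not have passed the filter there. In cycling cells, *Sema7a* was at 0.0172 to 0.0824 in WT and 0.140 and 0.182 in KO, with an adjusted p of 0.0905 (limma), and it passed the filter through KO alone. In endothelial cells, *Sema6d* was at 1.11, 1.07 and 1.64 in WT and 0.420 and 0.795 in KO, with an adjusted p of 0.447. *Sema3e* and *Sema4d* were under the filter in every class, so neither was tested between genotypes within a class. *Sema4d* entered only the test of newborn against upper layer changes, with a difference of 0.03 and an adjusted p of 0.890 (limma interaction).

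**Figure D3:**
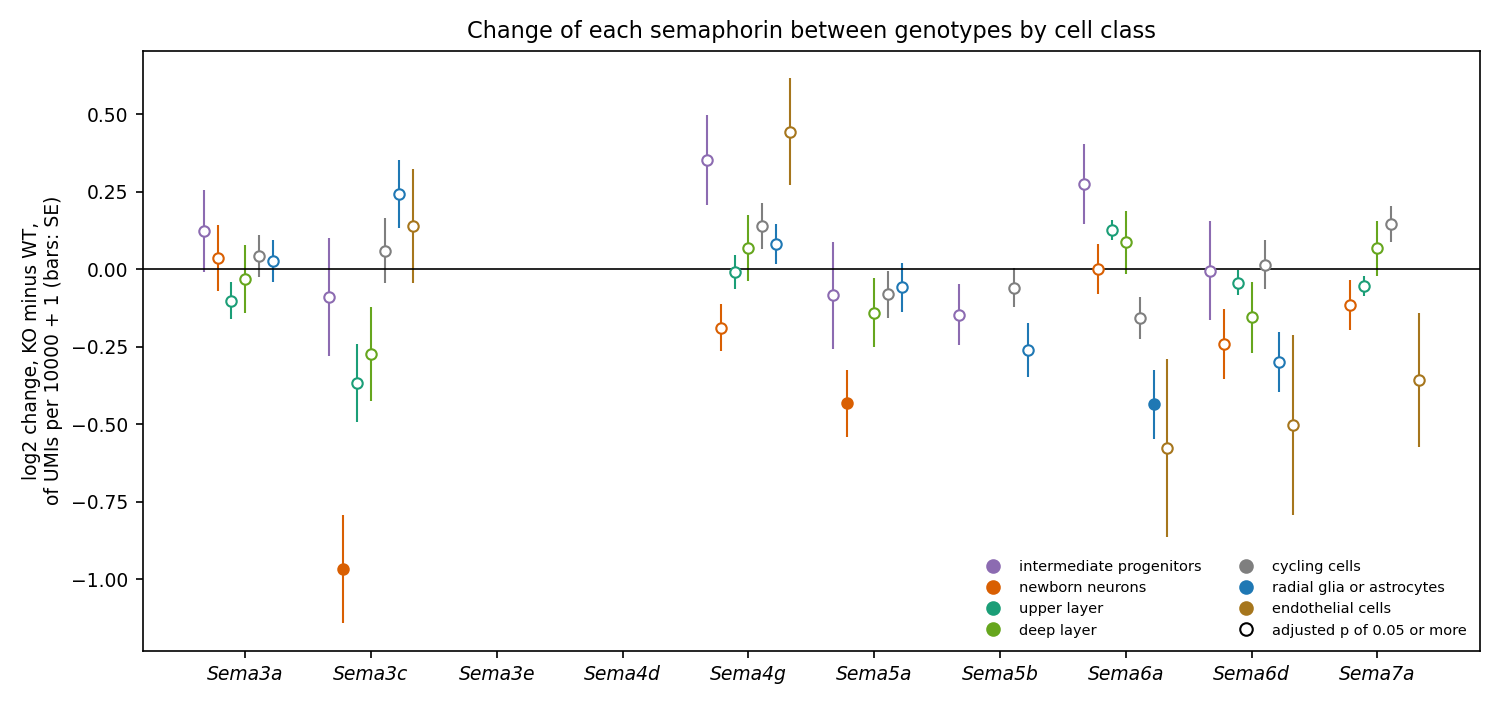
Log2 change of UMIs per 10000 plus 1, KO minus WT, for each semaphorin in 7 cell classes (colours), with the SE as bars. Filled points have an adjusted p under 0.05 (*Sema3c* and *Sema5a* in newborn neurons, *Sema6a* in radial glia or astrocytes), and members under the filter on low values have no point.

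Across cell classes, members were called higher in newborn neurons, intermediate progenitors, radial glia or astrocytes, Cajal-Retzius cells and endothelial cells. Each class was compared with the mean of the other 8 over 43 values of 1 library and class, with the library as a block (limma, 12215 genes, 9 of the 10 members tested). *Sema3c* was highest in newborn neurons, at 1.54 ± 0.97 UMIs per 10000 (SD, n = 5 libraries), then upper layer neurons at 0.712 ± 0.331 and intermediate progenitors at 0.634 ± 0.173. Newborn neurons were above upper layer neurons in 4 of 5 libraries, and the ranges of all neighbouring classes overlapped at each step, for *Sema3c* as for the other members. *Sema3c* was higher in newborn neurons than in the other classes by 0.78 ± 0.13 on the log2 scale, with an adjusted p of 4.72e-04, where 0.368% of all genes were called higher. Without WT4 the adjusted p was 0.0887, the only 1 of 13 alternatives that lost this call. *Sema3c* was lower in endothelial cells, at 0.179 ± 0.213, by 0.38 on the log2 scale, with an adjusted p of 0.0232 (limma).

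*Sema5a* was highest in intermediate progenitors, the cells that give rise to newborn neurons, at 0.287, 0.566, 0.409, 0.508 and 0.186 in the order WT2, WT3, WT4, KO4, KO5. The value in KO5 rests on 1 UMI. It was above the other classes by 0.31 ± 0.06 on the log2 scale, with an adjusted p of 8.22e-04 (limma) that held in 13 of 13 alternatives, where 1.37% of all genes were called higher. Newborn neurons followed at 0.309 ± 0.214 over the 5 libraries, and were below intermediate progenitors in 4 of 5. In WT2, WT3 and WT4 alone the order of the means was reversed, at 0.460 in newborn neurons and 0.421 in intermediate progenitors. No UMI of *Sema5a* was found in 21 intermediate progenitors of WT5.

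*Sema5b* was highest in radial glia or astrocytes, at 0.216 ± 0.149, and the difference of 0.18 ± 0.05 had an adjusted p of 0.0467 (limma). It held in 7 of 13 alternatives, and 4.37% of all genes were called higher in this class. *Sema6a* was highest in endothelial cells, at 1.13, 0.956, 1.30 and 1.03 in WT2, WT3, WT4 and KO4, with 0 of 16 cells in KO5, where 3 UMIs would be 0.872. Cajal-Retzius cells, the early reelin-secreting neurons of the surface, followed at 0.865, 0.966, 0.735 and 0.385 in WT2, WT3, WT4 and KO4, and radial glia or astrocytes at 0.585 ± 0.255. The endothelial and Cajal-Retzius differences of *Sema6a*, 0.52 ± 0.10 and 0.40 ± 0.11, had adjusted p of 3.25e-05 and 0.00893 (limma), where 16.1 and 9.47% of all genes were called higher. The first held in 12 of 12 alternatives and the second in 8 of 13. In the 3 glutamatergic neuron classes *Sema6a* had means of 0.111 to 0.132.

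*Sema6d*, a ligand of Plxna1 known from heart development, was also highest in endothelial cells, at 1.01 ± 0.45, above radial glia or astrocytes (0.348 ± 0.163) in 5 of 5 libraries. The endothelial difference of 0.69 ± 0.07 had an adjusted p of 6.03e-11 (limma) and held in 12 of 12 alternatives. *Sema6d* was lower in interneurons by 0.26 and in Cajal-Retzius cells by 0.25 on the log2 scale, with adjusted p of 0.0340 and 0.0299, held in 4 of 11 and 7 of 13 alternatives, where 4.03 and 4.60% of all genes were called lower. Mural or meningeal cells were too few for the tests. *Sema6d* was at 2.96 and 2.37 in WT2 and WT3, from only 2 and 6 such cells, and at 1.92 and 0.416 in WT4 and KO4, from 11 and 10 cells. *Sema7a* was called higher in endothelial cells by 0.20 ± 0.06 (adjusted p of 0.0175), at 0.344, 0.788, 0.0991, 0.165 and 0 in the same order of libraries, from 13 UMIs in 139 cells. It was above interneurons in 0 of 4 libraries there, although its mean over libraries was the highest. In endothelial cells 3 members were called higher and 3 lower (*Sema3a*, *Sema3c* and *Sema5a*), where 16.1 and 14.9% of all genes were.

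**Figure D4:**
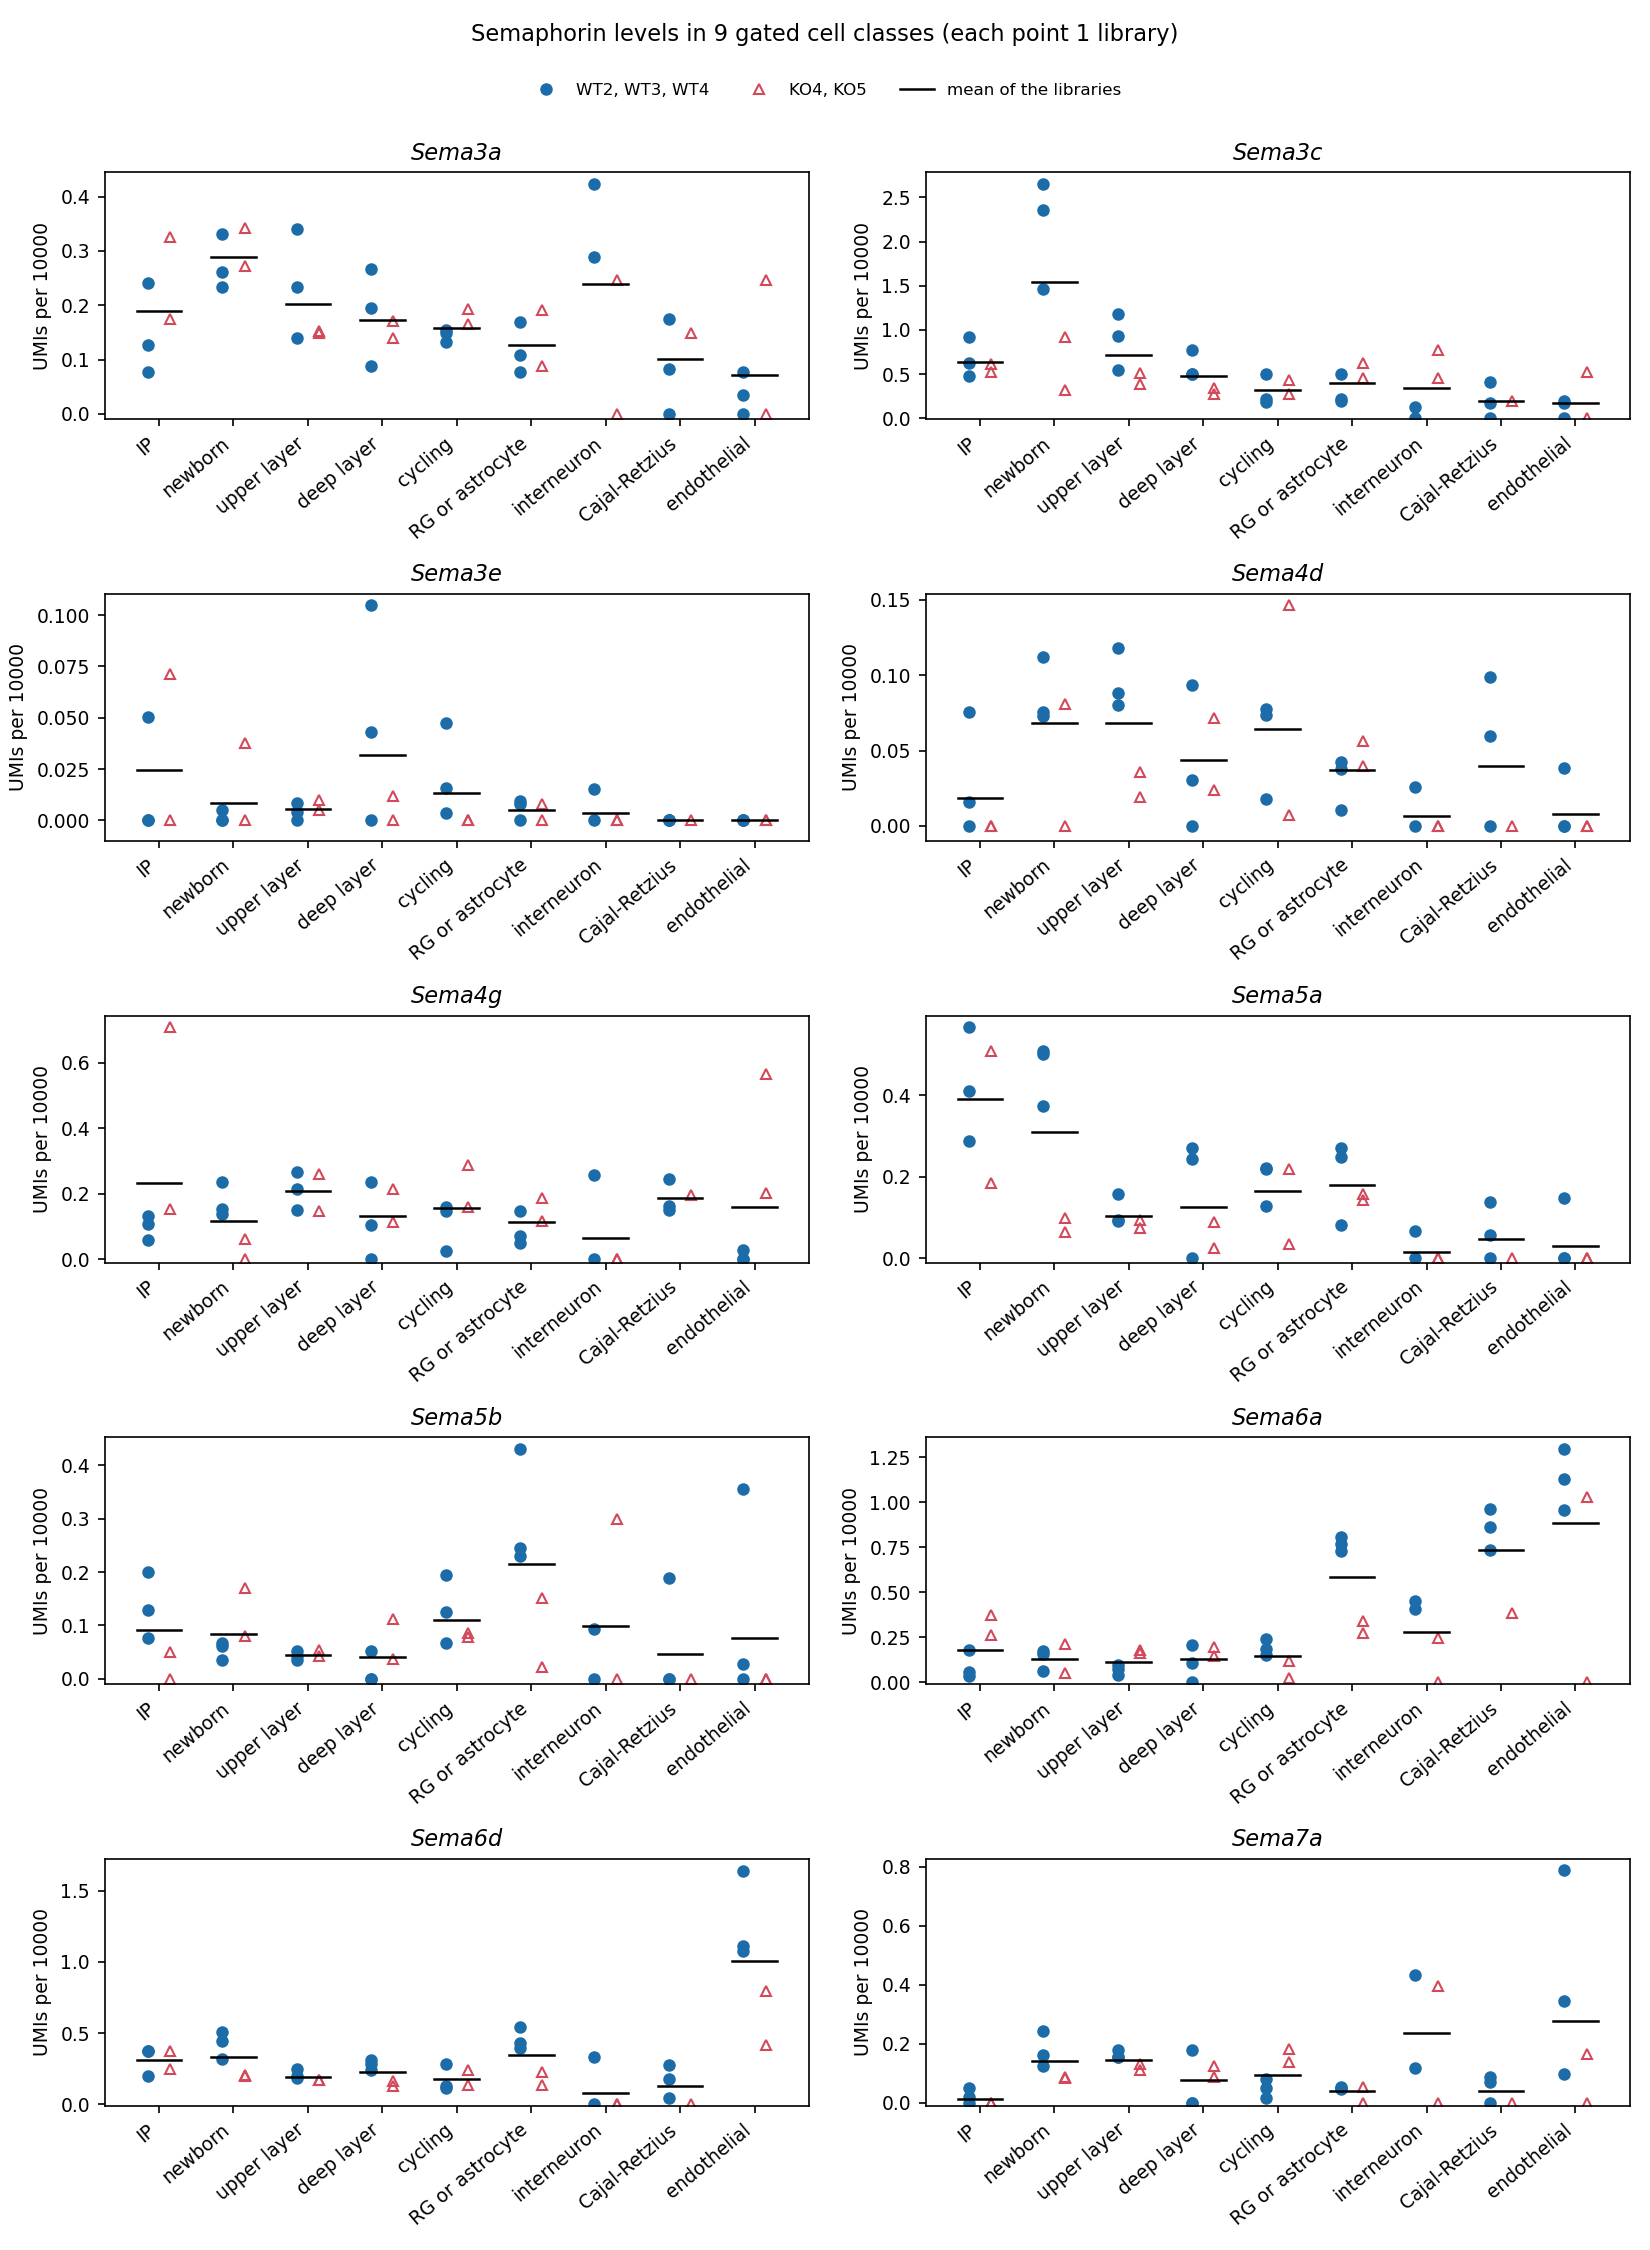
Mean UMIs per 10000 of the 10 semaphorins (1 panel each, with its own axis) in 9 gated cell classes, 1 point per library (circles WT2, WT3 and WT4, triangles KO4 and KO5) with at least 10 cells, and a line at their mean. By this mean, *Sema3c* is highest in newborn neurons, with the WT points above the KO points, and *Sema5a* in intermediate progenitors. *Sema5b* is highest in radial glia or astrocytes, and *Sema6a* and *Sema6d* in endothelial cells. For *Sema5a* the WT libraries alone have a higher mean in newborn neurons.

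The other 4 members had flatter or sparse levels. No member at all was called in upper layer, deep layer or cycling cells against the other classes, where 0.688, 1.10 and 4.84% of all genes were. *Sema3a* had means between 0.0716 in endothelial cells and 0.288 in newborn neurons, and its endothelial value was called lower (log2 difference of -0.14, adjusted p of 0.0499, limma). *Sema4g* had means of 0.0641 to 0.232 with no class called. *Sema4d*, known in immune cells and oligodendrocytes as a ligand of B-type plexins, had means of 0.00641 to 0.0684 in the 9 classes. In microglia, which were too few for the tests, *Sema4d* was at 0.410 in WT4 (9 UMIs in 58 cells) and 0.519 in WT5 (2 UMIs in 16 cells), and 0 of 47 cells of KO4 had a UMI, where 3 UMIs would be 0.267. *Sema3e* had 8 UMIs in 737 deep layer neurons and 14 in 5382 upper layer neurons of the 5 libraries, and 0 in endothelial and Cajal-Retzius cells.

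Along the lineage, no member was called between newborn neurons and intermediate progenitors, upper layer and newborn neurons, deep and upper layer neurons, or interneurons and upper layer neurons, where 0.311, 0.0655, 0.106 and 1.67% of all genes were called. For *Sema3c* the genes with the most similar levels over 8 classes in WT2, WT3 and WT4 were *Wbscr17*, *Cttnbp2* and *Zscan21* (Pearson r of 0.984, 0.962 and 0.950, across classes that share libraries, with no test). For *Sema5a* they were *Phf21a*, *Aqr* and *Sstr2* (0.952, 0.951 and 0.949), the last of which is a marker of the newborn gate. For *Sema6a* they were *Fam174a*, *Sar1a* and *Rab22a* (0.979, 0.973 and 0.972), and for *Sema6d* *Dap*, *Glmp* and *Nisch* (0.993, 0.979 and 0.978).

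Receptors were followed by a list of 14 genes. In newborn neurons 12 were tested, and 2 were called lower in KO and 0 higher, where 2.70% of all genes were lower and 1.82% higher. *Nrp1*, a co-receptor that binds class 3 semaphorins, was at 4.51, 4.47 and 4.37 in WT2, WT3 and WT4, against 1.98 and 1.28 in KO4 and KO5, with 0.629 in WT5 and 6.16 in KO1. The WT values lay close together, and the log2 difference was -1.06 ± 0.16 with an adjusted p of 1.29e-05 (limma). *Plxna2*, a signalling receptor for Sema3 complexes and for Sema6a, was at 2.43, 1.96 and 2.71 in WT and 0.872 and 0.727 in KO, with 0.427 in WT5 and 2.65 in KO1 (log2 difference of -0.90, adjusted p of 1.78e-04, limma). *Nrp1* was also lower in upper layer neurons, at 2.82, 4.04 and 2.62 in WT and 1.32 and 0.901 in KO (log2 difference of -0.97, adjusted p of 0.00712), the only receptor called there of 11 tested, where 3.36% of all genes were. *Nrp2*, the other neuropilin of the list, was not called in newborn neurons. It overlapped there, at 0.445, 0.111 and 0.908 in WT and 0.238 and 0.314 in KO. Thus *Sema3c* and *Nrp1* were both lower in newborn neurons of KO4 and KO5 than in WT2, WT3 and WT4. WT5 lay below all of these libraries in *Nrp1* and below WT2, WT3, WT4 and KO4 in *Sema3c*.

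**Figure D5:**
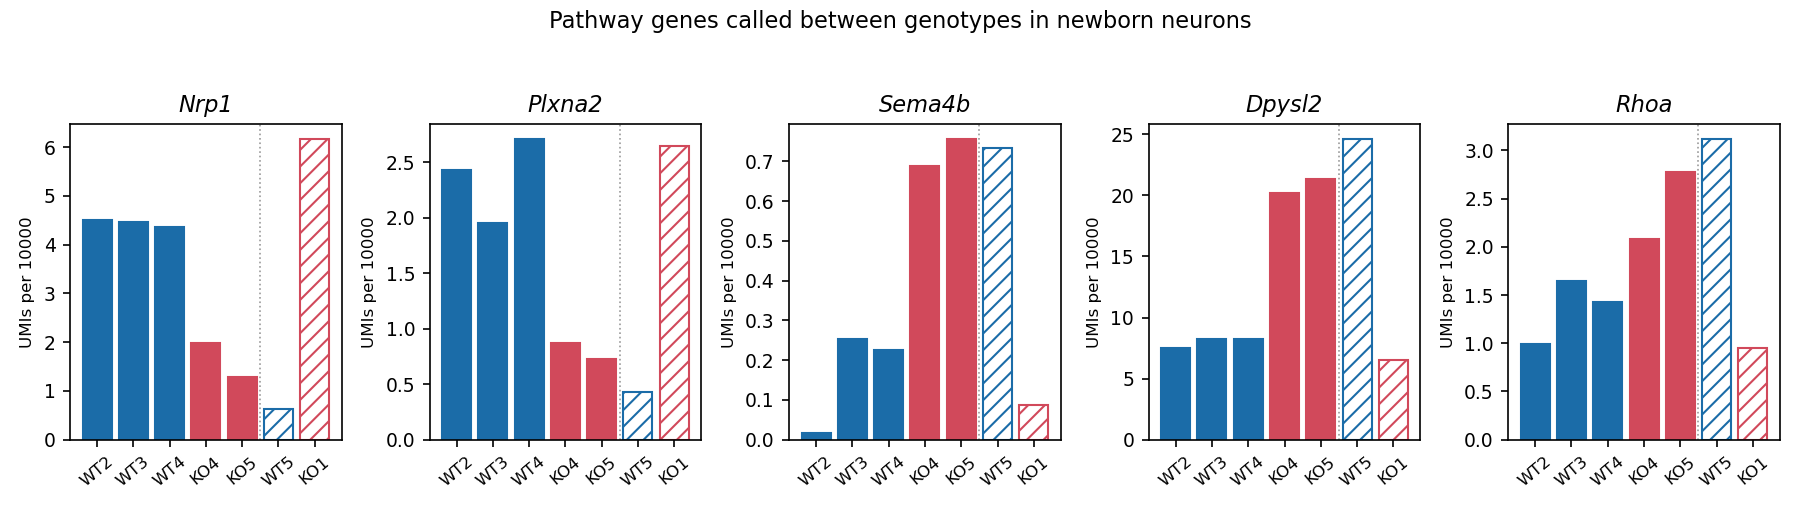
Mean UMIs per 10000 of 5 genes of the semaphorin pathway in newborn neurons, 1 bar per library from 0 (filled, compared; hatched, WT5 and KO1), for the genes called between genotypes. *Nrp1* and *Plxna2* are lower and *Sema4b*, *Dpysl2* and *Rhoa* higher in KO4 and KO5 than in WT2, WT3 and WT4, with WT5 at or beyond the KO values except for *Sema4b*, where it lies between them, and KO1 within or beyond the WT values.

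Among cell classes, *Nrp1*, *Plxna2* and *Plxna4* were higher in newborn neurons than in the other classes, by 0.86, 0.51 and 0.53 on the log2 scale (adjusted p of 0.0161, 0.00440 and 0.0255, limma). *Plxna4*, which signals with Nrp1 for Sema3a, was also higher in upper layer neurons, by 0.60 (adjusted p of 0.00599). These were 3 of 13 tested receptors in newborn neurons, where 0.368% of all genes were called higher. In endothelial cells 4 of the 13 were called higher and 5 lower, where 16.1 and 14.9% of all genes were. *Plxnd1*, the vascular receptor of Sema3e, was higher by 0.71, the integrin genes *Itgb1* and *Itga1* by 1.17 and 0.56, and *Nrp1* by 0.62. *Itga1* reached the test through its endothelial values, at 0.623, 0.943, 0.854 and 0.248 in WT2, WT3, WT4 and KO4. It was under 0.1 in upper layer and newborn neurons, intermediate progenitors, radial glia or astrocytes, cycling cells and interneurons of these libraries. *Plxna2*, *L1cam*, *Plxna4*, *Plxna3* and *Plxnb2* were lower there, with log2 differences of -0.56, -0.42, -0.40, -0.19 and -0.19. In radial glia or astrocytes 3 of 11 tested receptors were called between genotypes, where 4.92% of all genes were lower and 2.64% higher. *Itgb1*, an integrin chain that binds Sema7a, was lower in KO (log2 difference of -0.72, adjusted p of 0.00205, limma), and *Plxna4* and *Plxna1* were higher (0.53 and 0.31, adjusted p of 0.00691 and 0.0132), in the gate whose own markers fell. *Plxna1* entered this test through its KO values, 0.301 (KO4) and 0.421 (KO5). Its WT values were under 0.1 except for WT4 (0.156), which limits what its call can show.

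Of the 10 other semaphorins, 5 were tested in newborn neurons and 1 was called higher, where 1.82% of all genes were. *Sema4b*, a class 4 membrane protein, was at 0.0172, 0.254 and 0.226 in WT and 0.687 and 0.756 in KO, with 0.733 in WT5 and 0.0867 in KO1 (log2 difference of 0.57, adjusted p of 0.00163, limma). It was also called higher in upper layer neurons (0.49, adjusted p of 0.00114), radial glia or astrocytes (0.60, adjusted p of 5.78e-04), cycling cells and endothelial cells. In endothelial cells *Sema4b* had no UMI in 22, 11 and 37 cells of WT2, WT3 and WT4 and passed the filter on low values through KO4 and KO5 alone, at 0.515 and 1.27, so that call says little. Of 26 intracellular effectors, 22 were tested in newborn neurons, with 2 called higher and 0 lower, where 1.82 and 2.70% of all genes were. *Dpysl2*, the collapsin response mediator CRMP2 that binds tubulin downstream of Sema3a, was at 7.49, 8.25 and 8.25 in WT and 20.2 and 21.3 in KO, with 24.6 in WT5 and 6.56 in KO1 (log2 difference of 1.28, adjusted p of 7.87e-07). It was called higher in all 7 classes compared. *Rhoa*, a GTPase of growth cone collapse, was higher by 0.54 (adjusted p of 0.0412).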

How the data were processed

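Single cells of E18.5 neocortices were measured in 5 WT and 4 KO libraries. The authors deposited UMI counts of genes by cells for 4 libraries (WT4, WT5, KO4, KO5). The other 5 files hold, as deposited, the natural log of UMIs per 10000 plus 1, from which whole UMIs were recovered within 1e-06. The submitters' processing notes name Cell Ranger 2.1.0, Seurat 2.3.4, R 3.6.0 and GRCm38. Libraries hold 348105 to 29767293 UMIs.

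Cells with 1000 to 5000 genes, 1800 to 10000 UMIs, under 6% mitochondrial and at most 1% haemoglobin UMIs were kept, and the last limit removed 0.421 to 1.34% of cells in WT2, WT3 and WT4, 13.9% in KO4 and 40.4% in KO5. A cell, thinned to 1800 UMIs, entered the class with most of 8 markers detected, at least 2. Of the newborn neurons 50.5% had only 2, and of radial glia or astrocytes 30.2%. Doublets were not called. An alternative without possible doublets left out the cells of each library with the highest 5% of UMIs, and all cells with 2 or more markers of a second class.

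Genes that reached a mean of 0.1 in 2 or more libraries were tested with limma-trend (robust; limma 3.58.1, R 4.3.3) on log2(mean UMIs per 10000 + 1), with Benjamini-Hochberg adjustment over all genes and calls under 0.05. Exact permutation tests were not run. The fits were tested on simulated data. In newborn neurons limma recovered 27% of 2-fold and 92% of 4-fold changes, with 8 false calls. For the difference between newborn and upper layer changes it recovered 9 and 67%, with 5 false calls. For newborn neurons against the other classes it recovered 72 and 100%, with 1 false call. Changed genes were drawn above the levels of all members but *Sema3c* in these 2 neuron classes, so recovery of lower members was not tested. Alternatives changed the pseudocount to 0.5, the filter, the gates, the depth, the tool (edgeR 4.0.16, DESeq2 1.42.0) and the libraries. WT5 among the WT libraries and a second random thinning were added after seeing the data. The members and lists were chosen with earlier results of these data known. All 10 members are named, and of the pathway lists up to 4 called genes a comparison with the largest change. In endothelial cells all 9 called receptors are named, beyond this rule, and other genes named beyond the rule were chosen after their values were seen. Groups follow the labels, and columns of other samples were not used.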

Additional observations from a re-analysis of the deposited data

Results flagged for a closer look

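The *Sema3c* change between genotypes differed between newborn and upper layer neurons by -0.60 on the log2 scale, by a test of the difference itself (limma interaction). The *Sema5a* change differed by -0.39 in the same test, which it entered through its newborn values alone. In all kept cells, *Sema3e* was at 0.0825 UMIs per 10000 in the library labelled WT1, far from the other 4 libraries labelled WT, which were at 0.00992 to 0.0173. *Sema5a* was at 0.368 in all kept cells of the library labelled KO1, far from the other 3 libraries labelled KO, at 0.0965 to 0.112. These 2 were found among 24 groups of libraries checked for a sample far from the others, where chance gives about 1 in 20. WT1 is a library of 126 kept cells.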

How the results depend on the processing

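The 3 calls between genotypes and the 12 between classes kept their direction in all alternatives run, whereas 26 of 44 differences between genotypes that were not called changed sign in at least 1. *Sema3c* in newborn neurons ranged from -1.40 to -0.29 over 19 alternatives (adjusted p 6.77e-05 to 0.906) and was called in 13, edgeR included (adjusted p of 0.0447 with TMM and 0.0351 with RLE scaling). It was not called by DESeq2 (0.129), with no filter (0.331), with all libraries as labelled, with WT5 added, without KO5 or with the block. *Sema5a* ranged from -1.74 to -0.11 over 18 (adjusted p 0.00837 to 0.913), and *Sema6a* in radial glia or astrocytes from -1.02 to -0.14 over 19 (0.00798 to 0.999). These ranges join unlike scales, since edgeR, DESeq2 and the pseudocount of 0.5 do not use log2(value + 1). On the log2(value + 1) scale of the main fits the lowest values were -1.29 for *Sema3c*, -0.51 for *Sema5a* and -0.58 for *Sema6a*.

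The count of 2 called members in newborn neurons became 1 with a gate of 3 markers, a gate on all UMIs, edgeR with either scaling or the second thinning, and 0 with no filter, DESeq2, all libraries as labelled, WT5 added or the replicate block. The count of 1 in radial glia or astrocytes became 0 with no filter, either other gate, thinned values, edgeR, DESeq2, the replicate block, all libraries or WT5 added, and 2 with no haemoglobin limit. Leaving out 1 library gave 0 to 2 in newborn neurons, 0 to 4 in radial glia or astrocytes, and 0 to 1 in upper layer neurons, intermediate progenitors and endothelial cells. The interaction went from 2 to 0 with a gate of 3 markers and spanned 0 to 2 without 1 library (0 without WT2 or KO5).

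Between classes, a gate of 3 markers gave 2 called members in newborn neurons (main 1), 2 in radial glia or astrocytes (1) and 4 in Cajal-Retzius cells (2). A gate on all UMIs gave 4 in newborn neurons, 4 in Cajal-Retzius cells, 3 in interneurons (1), and 1 in upper layer neurons, cycling cells and the interneuron to upper layer contrast (0 each). Thinned values gave 0 in radial glia or astrocytes and interneurons, 1 in Cajal-Retzius cells and 2 in endothelial cells (6). Without possible doublets there were 2 in radial glia or astrocytes and 0 in interneurons and Cajal-Retzius cells, and with no filter 0 in radial glia or astrocytes. The WT libraries alone gave 3 in newborn neurons, 2 in intermediate progenitors (1), 2 in radial glia or astrocytes, 2 in cycling cells, 4 in Cajal-Retzius cells and 1 in upper layer neurons, in deep layer neurons and in the contrasts of newborn neurons with intermediate progenitors and with upper layer neurons. The second thinning gave 3, 2 and 4 in newborn neurons, radial glia or astrocytes and Cajal-Retzius cells. Leaving out 1 library gave 0 to 1 in upper layer neurons, deep layer neurons, interneurons and the newborn to progenitor contrast, 0 to 2 in radial glia or astrocytes, 0 to 3 in newborn neurons and Cajal-Retzius cells, 1 to 2 in intermediate progenitors and 2 to 5 in endothelial cells. The cause of these changes was not tested.

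Over all genes, the 387 calls in newborn neurons became 2 with no filter, 153 with a gate of 3 markers, 211 without possible doublets, 143 and 147 with edgeR, 79 with DESeq2 and 0 with all libraries or WT5 added. The 691 in radial glia or astrocytes became 111 with no filter, 344 and 351 with edgeR, 241 with DESeq2 and 0 with all libraries or WT5 added, and the 279 in upper layer neurons 72 with no filter and 0 with all libraries or WT5 added. Leaving out 1 library gave 78 to 611 in newborn neurons (134 without WT2, 160 without WT3), 117 to 1062 in radial glia or astrocytes (382 without KO4) and 51 to 724 in upper layer neurons (172 without WT2, 90 without KO4), each time lowest without KO5 and highest without WT4. The other classes gave 5 to 31 in deep layer neurons, 39 to 511 in intermediate progenitors, 290 to 1331 in cycling cells and 38 to 322 in endothelial cells. The replicate block left 3, 0 and 0 of these calls. It used the libraries whose number occurs in both genotypes, WT5 and KO1 among them, and same-numbered libraries correlated by -0.013, 0.192, 0.236 and 0.496 for numbers 1, 2, 4 and 5 over 1498 genes in upper layer neurons. WT2, WT4 and WT5 each correlated best with the KO library of their number, a hint of pairing in the data, and WT1 (18 such cells) did not. From the KO side the hint was weaker. KO2 and KO5 correlated best with the WT library of their number, but KO4 did so with WT5 (0.453) and KO1 with WT3 (0.200). The labels tie no number to a litter or day, and 1 correlation was under 0.1, so whether the numbers pair the libraries was left undecided and the fit without the block was reported. With the block, *Sema3c* in newborn neurons was at -0.50 (adjusted p of 0.903) and *Sema6a* in radial glia or astrocytes at -0.14 (0.984). In KO4 and KO5 the *Sema5a* values rest on 4 and 1 UMIs, which limits what these libraries can show.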
